A study of Mus musculus with 144 samples.

Results

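Cirbp and Rbm3 encode a pair of closely related RNA-binding proteins, and they are described here as 2 of the 51912 genes counted in mouse liver by 3′ mRNA sequencing, a method that counts transcripts by their polyadenylated ends. Both genes were taken by symbol, together with the polyadenylation sites that lie in them, which were 3 of 29199 sites in the authors' filtered list and 5 sites in their unfiltered list. All mice were C57BL/6J males kept under 12 h light and 12 h dark cycles and fed freely. The 144 libraries form 4 series of 36, which are total RNA, nuclear RNA and polysomal RNA from wild-type liver and total RNA from Bmal1-/- liver. In every series there are 6 libraries for each of 6 zeitgeber times, counted in hours after lights on (ZT2, ZT6, ZT10, ZT14, ZT18 and ZT22). Nuclei were prepared from frozen tissue over a sucrose cushion. Polysomes, the mRNA carrying several ribosomes, were taken from gradient fractions of frozen tissue with cycloheximide present. Nothing in the labels says whether libraries of one group came from separate animals, so p-values measure the spread between these libraries. The age of the mice, the part of Bmal1 that was altered and the tissues in which it was altered are not stated in the labels.

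CIRBP (cold-inducible RNA-binding protein) and RBM3 (RNA-binding motif protein 3) each carry an RNA recognition motif followed by a glycine-rich tail. Both are best known for rising when cells are cooled by a few degrees, and body temperature in mice rises in the dark, active phase and falls in the light, resting phase. CIRBP has been described as a binder of clock gene mRNAs, and both proteins as regulators of the choice of polyadenylation site. BMAL1, the product of the gene Arntl, is the activator at the centre of the circadian clock. Chaperones such as Hsph1, Hspa1b and Hsp90aa1 are induced by heat through the factor HSF1 and are therefore listed beside the cold-inducible genes. The list called heat-inducible chaperones below also holds the heat shock factor genes Hsf1 and Hsf2, and its counts include them.

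Cirbp is also known for an upstream element named for its response to mild cold, which binds the factor Sp1. The RefSeq promoter at the first Cirbp start site (GRCm38.p6, chr10:80167589-80167888, plus strand, 250 bases before to 50 bases after the start) is shown because the daily pattern of Cirbp carries most of the results here. Capitals mark the motifs searched on both strands, which were the mild cold-responsive element TCCCCGCC, the GC box GGGCGG and the CCAAT box CCAAT.
Cirbp promoter, first start site: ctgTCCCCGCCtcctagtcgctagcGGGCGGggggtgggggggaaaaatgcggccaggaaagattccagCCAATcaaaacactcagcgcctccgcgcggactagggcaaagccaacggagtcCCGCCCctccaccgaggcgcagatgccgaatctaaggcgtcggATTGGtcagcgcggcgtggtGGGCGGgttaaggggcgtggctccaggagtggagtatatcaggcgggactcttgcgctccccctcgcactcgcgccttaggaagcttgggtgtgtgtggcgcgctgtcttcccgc
The cold element begins at base 4 of this window, GC boxes at bases 26, 123 and 186, and CCAAT boxes at bases 70 and 166. Of 32544 RefSeq promoters of the same length, 5.42% held the cold element, 35.9% a GC box and 37.4% a CCAAT box. The E-box CACGTG, the letters bound by CLOCK and BMAL1, and the heat shock element GAANNTTC were not in this window, and 7.17% and 7.89% of promoters held them. These matches are letters in a window, with no overlap among those marked, and were not measured as sites. The window at the second listed start site (chr10:80167921-80168220) held 4 GC boxes and none of the other motifs. Of the 2 genes, Cirbp matched an entry among the RefSeq promoters and Rbm3 did not.

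Both mRNAs were detected in every library at modest levels. Cirbp in total RNA of wild-type liver had 10.6 CPM (the library's share of gene counts, scaled to a total of 1000000) ± 4.27 (SD, n = 36), with a lowest library of 3.65, a median of 10.3 and a highest of 19.5. Rbm3 had 13.3 CPM ± 3.76 (SD, n = 36), with a lowest of 6.33, a median of 12.9 and a highest of 21.3. These levels rest on few reads, with median counts of 82 for Cirbp and 103 for Rbm3. Nuclear libraries were the thinnest, with median counts of 29 for Cirbp and 55 for Rbm3 and a lowest Cirbp count of 3. Depth limits both genes most in nuclear RNA.

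Library totals spanned 5316601 to 9831142 gene counts for wild-type total, 1662449 to 6620128 for nuclear, 2578048 to 13068044 for polysomal and 4379549 to 14281894 for Bmal1-/- RNA. Hepatocyte markers (Alb, Apoa1, Ttr, Serpina1c, Cyp3a11 and Tat) were abundant in every library, with a lowest sum of 14580 CPM. The club cell markers (Scgb1a1 and Scgb3a2) had a median of 0 in all series but a sum of 667 CPM in one polysomal library. The pancreatic acinar list reached 3133 CPM in a polysomal library. Dbp, a direct clock target, averaged 27.0 CPM ± 37.5 (SD, n = 36) for wild-type total RNA and 2.74 CPM ± 0.94 (SD, n = 36) in Bmal1-/-. Arntl itself averaged 11.5 CPM in Bmal1-/- and 6.73 CPM in wild type, and 3′ reads do not check an allele whose altered part is not stated. In bulk RNA, fewer cells of a type and less RNA per cell cannot be told apart.

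The first question was how the pair varied over the day in wild-type liver. Cirbp rose in the light phase and was lowest in the dark phase in all 3 wild-type series, while Rbm3 had later fitted peaks and smaller fitted swings. The fitted peak of Cirbp fell at ZT5.89 in total RNA, that is in the middle of the light phase. Rbm3 had its highest mean at ZT14, just after lights off, in total, nuclear and polysomal RNA.

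In wild-type total RNA, the 6 libraries at ZT6 had a lowest Cirbp level of 9.45 CPM, a median of 15.8 and a highest of 19.5, with a mean of 15.5 ± 3.998 (SD, n = 6). At ZT18 the lowest was 3.65, the median 6.74 and the highest 9.15, with a mean of 6.42 ± 2.11 (SD, n = 6). Every ZT6 library was above every ZT18 library. The mean levels ran in the order ZT6, ZT10, ZT2, ZT22, ZT14 and ZT18, and the step from ZT10 to ZT2 was the only one between neighbours in that order that was larger than both SDs. The highest mean was 2.42 times the lowest.

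The fitted peak-to-trough difference of Cirbp in total RNA was 1.27 on the log2 scale (SE 0.18), with an adjusted p of 7.07e-06 by edgeR's quasi-likelihood test of a 24 h cosine and sine. Of 11964 genes tested, 18.9% were called rhythmic at an adjusted p under 0.05. Among the 2260 called genes, 299 (13.2%) had a larger swing than Cirbp and 175 (7.74%) peaked within 1 h of it. Cirbp thus swung more than most rhythmic transcripts of these livers.

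In nuclear RNA, which holds young and retained transcripts, Cirbp at ZT6 had a lowest library of 9.18 CPM, a median of 14.8 and a highest of 18.98. At ZT18 the lowest was 0.78, the median 4.16 and the highest 8.80. The ZT6 and ZT18 groups did not overlap there either, and the highest mean was 3.20 times the lowest. The peak-to-trough difference was 1.47 (SE 0.28, log2), with a peak at ZT5.81 and an adjusted p of 0.00163 by edgeR, where 5.99% of genes were called. With replicates 1 to 3 alone the nuclear swing was 1.15 with an adjusted p of 0.227, which missed the threshold.

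In polysomal RNA, Cirbp at ZT6 had a lowest library of 33.0 CPM, a median of 40.4 and a highest of 48.6. At ZT18 the lowest was 8.77, the median 14.7 and the highest 20.5. The peak-to-trough difference was 1.23 (SE 0.20, log2), with a peak at ZT6.82 and an adjusted p of 1.08e-04 by edgeR, where 7.9% of genes were called. The pattern of Cirbp was thus present in nuclear, total and polysomal RNA with swings of 1.23 to 1.47.

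Rbm3 varied less. In wild-type total RNA its ZT14 libraries had a lowest level of 14.04 CPM, a median of 16.4 and a highest of 17.9, against 6.33, 11.7 and 15.6 at ZT2. The highest and lowest groups overlapped, and none of the steps between neighbouring means in order of level was larger than both SDs. The peak-to-trough difference was 0.46 (SE 0.17, log2) with a peak at ZT12.8 and an adjusted p of 0.0981 by edgeR, which missed the threshold. With the replicate number as a block the adjusted p was 0.0329. In nuclear RNA the difference was 0.62 (SE 0.22, log2) with an adjusted p of 0.222.

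Rbm3 was called rhythmic in polysomal RNA. There its ZT14 libraries had a lowest level of 44.3 CPM, a median of 62.9 and a highest of 76.9. The ZT2 libraries had a lowest of 28.8, a median of 32.2 and a highest of 58.1, so the groups overlapped through the highest ZT2 library. The peak-to-trough difference was 0.95 (SE 0.17, log2) with a peak at ZT14.6 and an adjusted p of 5.63e-04 by edgeR. With replicates 1 to 3 alone it was 1.12 with an adjusted p of 0.0849.

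A call in polysomal RNA and none in total RNA does not show that the Rbm3 rhythm differed between them. The test of that difference, the interaction of series with the cosine and sine pair, gave an adjusted p of 0.829 by edgeR, with 0.0435 before adjustment. For Cirbp the same test gave an adjusted p of 0.9997 for nuclear and of 1 for polysomal against total RNA, with 0.832 and 0.512 before adjustment. Over all genes edgeR called 0.0% for nuclear and 0.0% for polysomal against total RNA, with 244 and 681 genes at an unadjusted p under 0.05, and DESeq2 called 0 and 15.

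**Figure D1:**
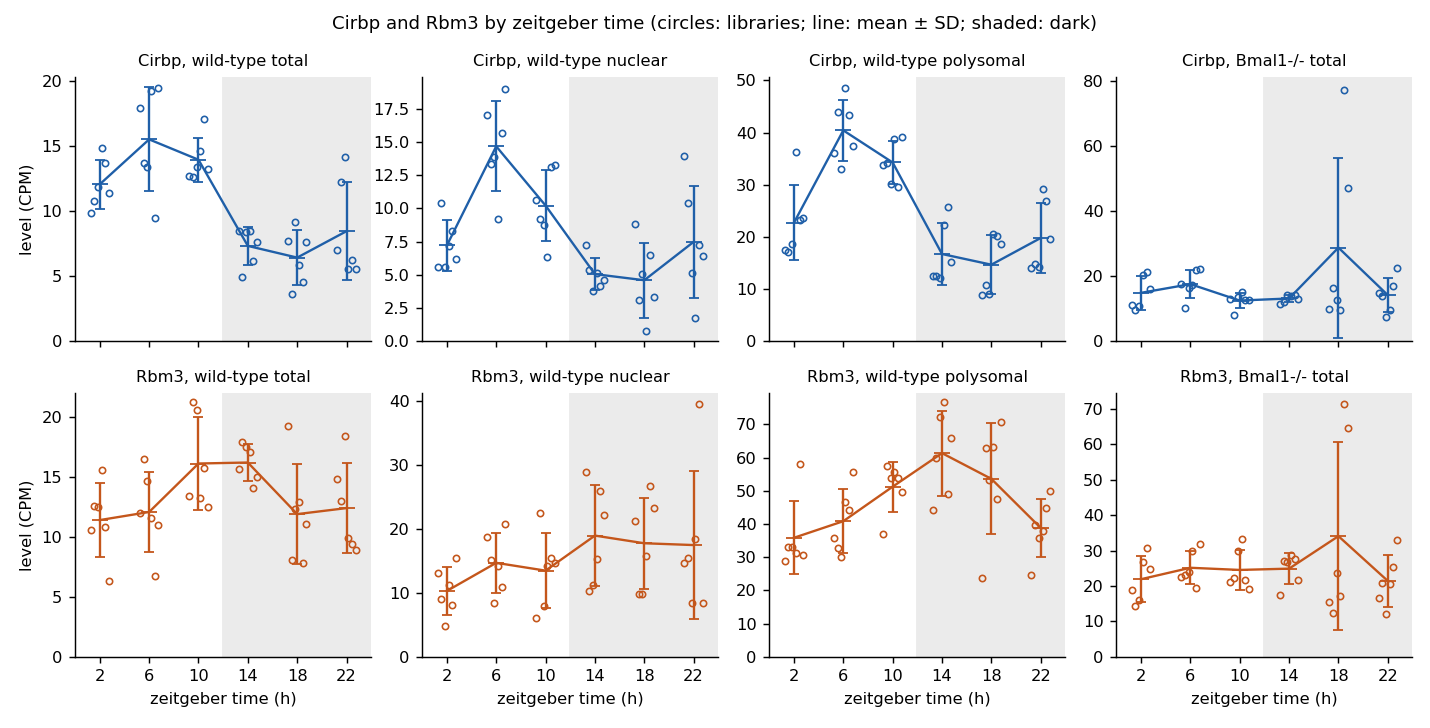
Levels of Cirbp (top) and Rbm3 (bottom) in CPM against zeitgeber time in 4 series, each panel with its own vertical axis that starts at 0. Circles are single libraries, lines and bars the mean ± SD of 6 libraries, and shading the dark phase. Cirbp is highest at ZT6 in the 3 wild-type series, and 2 Bmal1-/- libraries at ZT18 lie above all others of that series for both genes.

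Because both genes are counted in the same library, their ratio does not depend on how that library was scaled. In wild-type total RNA the mean log2 ratio of Cirbp to Rbm3 counts was 0.37 at ZT6 and -1.16 at ZT14. Cirbp reads thus outnumbered Rbm3 reads at ZT6, and Rbm3 reads outnumbered Cirbp reads at ZT14. The fitted peak-to-trough difference of the ratio was 1.49 in total RNA, 2.20 in nuclear RNA and 1.88 in polysomal RNA, with peaks at ZT4.70, ZT5.58 and ZT5.03. Permutation tests (100000 resamples, adjusted over 4 series) gave 2e-05, 4e-05 and 2e-05, and the smallest value the permutations can give before adjustment is 1e-05. The ratio followed the day in both sets of 3 replicates in each of these series, with adjusted p-values of 0.0173 or less. In Bmal1-/- the difference was 0.41 and the permutation p 0.0762, and they were 0.39 and 0.0732 without the ZT18 libraries with replicate numbers 5 and 6, which stood apart in that series. This test was added after the levels had been seen.

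**Figure D2:**
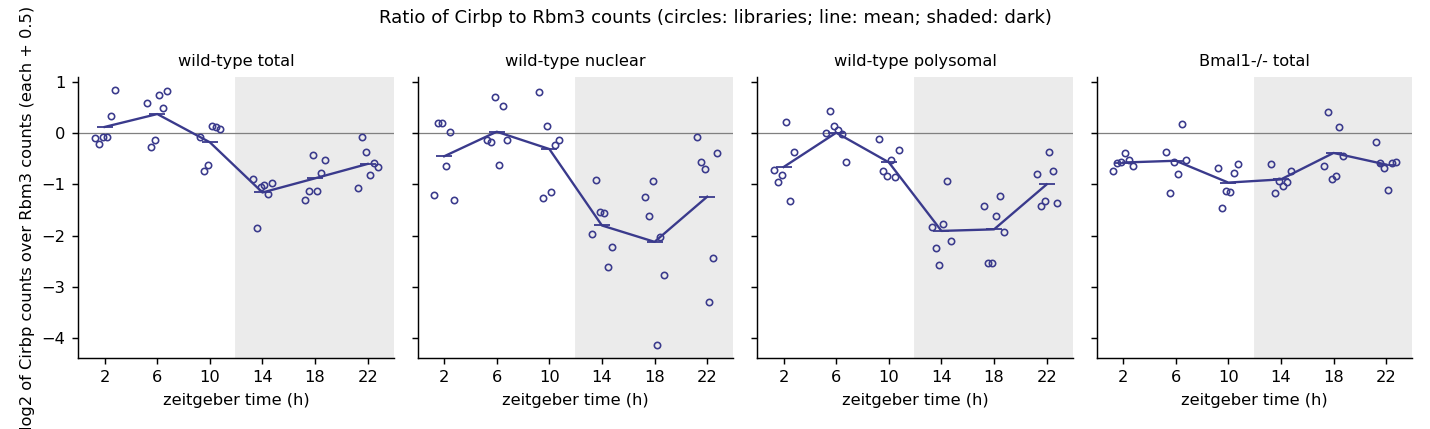
Log2 of the Cirbp count over the Rbm3 count in each library (0.5 added to both) against zeitgeber time, with the mean of 6 libraries as a line and the dark phase shaded. In the 3 wild-type series the ratio falls from about equal counts at ZT6 to more Rbm3 than Cirbp at ZT14, and in Bmal1-/- the means stay between -0.97 and -0.39.

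Heat-inducible chaperones ran opposite to Cirbp. Of 22 genes tested from the list, 16 were called rhythmic in wild-type total RNA, against 18.9% of all genes. The median peak-to-trough difference was 1.002 against 0.32 over all genes. All 16 peaked in the dark phase, between ZT15.4 and ZT19.8. The share of all rhythmic genes with a dark-phase peak was not counted. The largest swings were those of Hspa1b (2.30, SE 0.50), an inducible HSP70, Hsph1 (2.15, SE 0.26), an HSP110, Hsp90aa1 (1.85, SE 0.22), an inducible HSP90, and Hspb1 (1.64, SE 0.36), a small heat shock protein. The calls were 13 of 21 in nuclear RNA and 9 of 22 in polysomal RNA, again all with a dark-phase peak. Over all genes 5.99% and 7.9% were called.

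Hsph1 at ZT6 in wild-type total RNA had a lowest library of 12.0 CPM, a median of 16.2 and a highest of 20.3. At ZT14 the lowest was 30.9, the median 72.3 and the highest 97.3. Over the 18 wild-type group means, each series centred on its own mean, the correlation of Cirbp with Hsph1 was r = -0.97. That of Rbm3 with Hsph1 was r = 0.35, and that of Cirbp with Rbm3 r = -0.38. These 18 means share 6 time points, so they are given as a description without a p.

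The other 29 tested genes of the Rbm family gave 8 rhythmic calls in wild-type total RNA, with a median swing of 0.35, against 18.9% and 0.32 over all genes. Rbm25 (0.78, peak at ZT14.3), a splicing factor, and Rbm14 (0.73, peak at ZT15.8), a coactivator, had the largest. None of the 8 peaked within 3 h of Cirbp and 4 peaked within 3 h of the fitted peak of Rbm3, whose own rhythm was not called there. The shares of all rhythmic genes within 3 h of these peaks were not counted, so the counts show no likeness to either member. In nuclear RNA edgeR called 0 of 27, with 4 at an unadjusted p under 0.05, and in polysomal RNA it called 1 of 28. Over all genes it called 5.99% and 7.9%.

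CLK kinases, whose activity is known to follow temperature, and the SR splicing factors they phosphorylate were the next list. Of 15 tested, 3 were called in wild-type total RNA, with a median swing of 0.25, against 18.9% and 0.32 over all genes. Srsf5 peaked at ZT4.59 (swing 0.40, SE 0.09), Srsf6 at ZT17.4 and Tra2a at ZT20.6. Clk1 had a swing of 0.10 (SE 0.10) and an adjusted p of 0.721.

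The genes most like each member were found by Pearson correlation over the 18 wild-type group means among 5288 genes with at least 50 counts per library on average. For Cirbp they were Rnf152 (r = 0.95), Junb (0.95), Fbxo21 (0.94), Eepd1 (0.93) and Fam13a (0.93). All 5 were called rhythmic in wild-type total RNA, with peaks between ZT5.61 and ZT7.20. The means of that series were part of the choice, so calls and peaks like those of Cirbp largely follow from it. Junb encodes a component of the AP-1 transcription factor and Rnf152 a ubiquitin ligase. For Rbm3 the closest were Ikzf5 (0.85), Ube2e2 (0.83), Tor1b (0.83), Pex26 (0.83) and Bhlhe40 (0.83), the last a transcriptional repressor of the clock. Of these, Tor1b, Pex26 and Bhlhe40 were called rhythmic in wild-type total RNA. Ikzf5 and Ube2e2 were not (edgeR adjusted p = 0.147 and 0.151). The likeness of Rbm3 to its nearest genes was lower than that of Cirbp to its own.

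The next question was how the pair differed in the libraries labelled Bmal1-/-. In Bmal1-/- both genes were higher than in wild type and neither was called rhythmic, but 2 libraries at ZT18, those with replicate numbers 5 and 6, stood apart and carried part of each result. The results on Bmal1-/- are therefore also given without them. Cirbp was 77.5 and 47.0 CPM in these libraries, against 7.52 to 22.5 (median 13.7) in the other 34 Bmal1-/- libraries. Rbm3 was 71.4 and 64.6 CPM, against 12.1 to 33.2 (median 22.4). Both genes were thus above every other Bmal1-/- library, on counts of 407 to 724.

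The same libraries differed in other genes. Hspa1b was 0.43 and 1.73 CPM against a median of 8.15 in the other 34 (range 1.58 to 15.3). Of 22 listed heat-inducible chaperones, 15 were below the median of the other 34 in both libraries and 2 were above it in both. The share of all genes below it in both was not counted. Angptl4, a fasting-induced regulator of lipoprotein lipase, was 104 and 90.8 CPM against 6.70 to 63.8, and the metallothionein Mt1 was 1086 and 1588 CPM against 11.2 to 836. Ppargc1a, a coactivator of gluconeogenic genes, was 63.5 and 25.9 CPM against 5.52 to 34.9. Library 5 had the lowest median correlation with its group of all 36 Bmal1-/- libraries (r = 0.92) and library 6 the 5th lowest (0.94), at totals of 9343498 and 8657048 counts. The part of these differences in the results on Cirbp and Rbm3 was not tested beyond leaving the libraries out.

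Over the 6 time points Cirbp was higher in Bmal1-/- by 0.57 on the log2 scale (SE 0.13, edgeR adjusted p = 1.15e-04). Without the 2 libraries the difference was 0.37, with an adjusted p of 6.21e-04. With replicates 1 to 3 alone it was 0.19 with an adjusted p of 0.201. Rbm3 was higher by 0.82 (SE 0.11, adjusted p = 3.88e-09), and by 0.66 without the 2 libraries (adjusted p = 1.19e-09). The Rbm3 difference was 0.35 with replicates 1 to 3 alone and 1.22 with replicates 4 to 6 alone, so its size differed between the sets while the call stood in each. Replicates 4 to 6 include the 2 ZT18 libraries. The mean Rbm3 level of that set in Bmal1-/- was 30.4 CPM with them and 25.8 CPM without them. Of 12082 genes, 21.7% were called higher in Bmal1-/-.

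Excluding the 2 libraries, the highest Bmal1-/- Rbm3 level was 33.2 CPM and the highest wild-type level 21.3, with medians of 22.4 and 12.9. The series overlapped for both genes. Markers of other cells differed between the series in the same libraries. The summed cholangiocyte markers (Krt19, Epcam, Sox9 and Spp1) had a median of 73.2 CPM (range 45.5 to 135) in Bmal1-/- and 25.4 CPM (range 16.0 to 66.6) in wild type, with all 4 markers above 0 at the median. The pancreatic acinar list had medians of 102 CPM (range 15.5 to 185) and 34.4 CPM (range 15.0 to 94.4), with 3 of its 4 markers at a median of 0. Stellate markers had medians of 332 and 273 CPM. Other lists had lower medians in Bmal1-/-, with overlapping ranges. These were the hepatocyte (61722 against 78813 CPM), erythroid (1384 against 2395) and adipocyte sums (10.1 against 18.7). Kupffer (169 and 183) and endothelial medians (189 and 186) were close. The part of these markers in the Cirbp and Rbm3 differences was not tested.

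By time point, the largest Cirbp differences were those of the dark phase. The log2 difference from wild type was 0.22 at ZT2, 0.12 at ZT6 and -0.24 at ZT10, and it was 0.76 at ZT14, 1.98 at ZT18 and 0.60 at ZT22 (SE 0.30 to 0.31). Only the ZT18 difference passed the threshold (edgeR adjusted p = 5.69e-06). Without the 2 libraries it fell to 0.71 with an adjusted p of 0.0589, and the unchanged ZT14 difference of 0.76 then had an adjusted p of 0.0153. Rbm3 was higher at all 6 time points, by 0.53 to 1.35, and passed at ZT2 (0.86, adjusted p = 0.0315), ZT6 (1.004, adjusted p = 0.00943) and ZT18 (1.35, adjusted p = 2.62e-04). Without the 2 libraries the ZT18 difference of Rbm3 was 0.35 (adjusted p = 0.408), and ZT22 passed instead with 0.67 (adjusted p = 0.0269). The shares of all genes called higher in Bmal1-/- were 4.89% at ZT2, 4.97% at ZT6, 8.23% at ZT10, 4.77% at ZT14, 6.49% at ZT18 and 3.12% at ZT22.

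**Figure D3:**
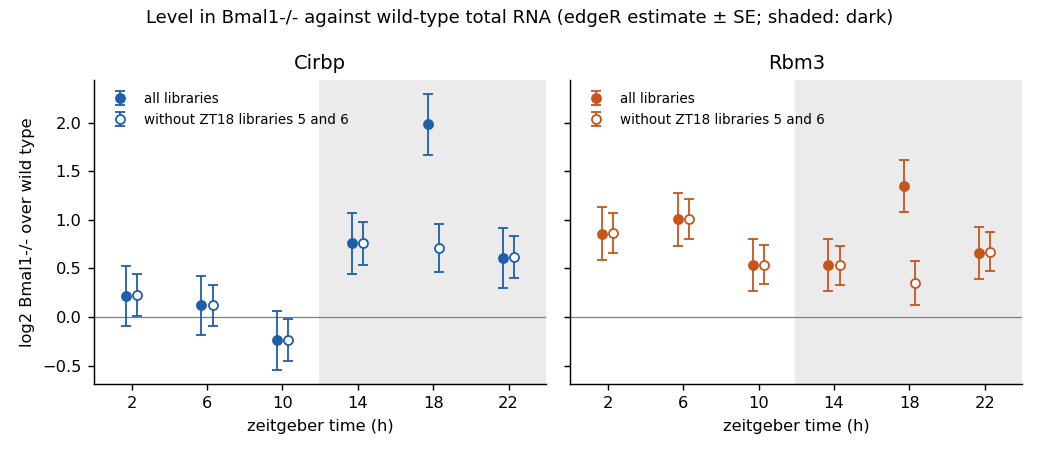
Log2 difference between Bmal1-/- and wild-type total RNA at each zeitgeber time (edgeR estimate ± SE) for Cirbp (left) and Rbm3 (right), with all libraries (filled) and without Bmal1-/- ZT18 libraries 5 and 6 (open), the dark phase shaded. Cirbp lies between -0.24 and 0.23 in the light phase and at 0.60 or above in the dark phase, Rbm3 is above 0 at all 6 times, and the ZT18 estimates drop most when the 2 libraries are left out.

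In Bmal1-/- the peak-to-trough difference was 0.56 (SE 0.34) for Cirbp and 0.33 (SE 0.26) for Rbm3, with unadjusted p-values of 0.238 and 0.437, and adjusted p = 0.9999 for both by edgeR. With these libraries left out the differences were 0.48 (SE 0.18) and 0.40 (SE 0.16), with unadjusted p-values of 0.0351 and 0.0683 and adjusted p = 0.973 for both. The fitted peaks moved from ZT19.6 to ZT4.14 for Cirbp and from ZT15.7 to ZT7.88 for Rbm3. With all libraries, 0.00825% of 12126 genes were called rhythmic in this series. The rhythm of Cirbp differed from that of wild type (edgeR interaction, adjusted p = 0.00358), as did that of 5.11% of 12082 genes. Without the 2 libraries the adjusted p was 0.0672 and the call was lost, and with replicates 1 to 3 alone it was 0.432. Leaving out all libraries numbered 5 gave 0.0443 and all numbered 6 gave 0.0488. The length of the difference between the fitted cosine and sine pairs was 1.80 with all libraries and 0.88 without the 2. For Rbm3 the interaction gave an adjusted p of 0.832, and of 0.397 without the 2 libraries.

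Of 22 heat-inducible chaperones tested in Bmal1-/-, edgeR called 0 rhythmic, with 1 at an unadjusted p under 0.05. The rhythm of 10 of 22 differed from wild type, against 5.11% of all genes. Among the 10 were Hsph1 (edgeR interaction, adjusted p = 8.40e-05) and Hsp90aa1 (adjusted p = 2.65e-05). Without the 2 libraries 8 of 22 differed, against 621 of 12075 genes. Of the other Rbm genes 2 of 29 differed and without the 2 libraries 1 of 29, and of the 18 clock genes tested 15 differed and 16 without them. Among levels, 9 genes of the chaperone list were lower and 2 higher in Bmal1-/-. Hspb1 was lower by 3.33 (log2 -3.33, SE 0.21) and Dnaja4, an HSP40, higher by 1.49 (SE 0.11). Of all genes, 22.4% were called lower in Bmal1-/-. The counts were 8 lower and 3 higher without the 2 libraries.

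Polysomal RNA gave the largest difference in level for both members. Over the 6 time points Cirbp was higher in polysomal than in total RNA by 1.12 on the log2 scale (SE 0.09, edgeR adjusted p = 3.53e-18), and Rbm3 by 1.73 (SE 0.09, adjusted p = 3.89e-29). The share of all genes called higher was 38.4%, and the Rbm3 difference ranked 190 of 11556 by size. Rbm3 had 47.0 CPM ± 14.1 (SD, n = 36) in polysomal RNA, with a lowest library of 23.8, a median of 47.0 and a highest of 76.9, all above the highest wild-type total library at 21.3. Cirbp had 24.8 CPM ± 11.04 (SD, n = 36) there, and its range of 8.77 to 48.6 overlapped that of total RNA.

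The difference was present at each time point, between 0.72 and 1.25 for Cirbp and between 1.46 and 2.21 for Rbm3, with the smallest value of both at ZT2 and the largest Rbm3 value at ZT18. The heat-inducible chaperones had a median of -0.33, with 11 lower and 3 higher of 22. The other Rbm genes had the same median of -0.33, with 15 lower and 8 higher of 29. Over all genes the median was 0.01 and 37.6% were called lower. Erythroid markers were also higher in polysomal than in total RNA, with a median sum of 8237 CPM (range 1923 to 19500) against 2395 CPM (range 510.2 to 12481). The other marker lists had medians no higher in polysomal RNA, with the hepatocyte sum at 37665 against 78813 CPM. The part of these markers was not tested. These differences compare shares of each library, so they do not give amounts of RNA per cell.

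In nuclear RNA Cirbp was lower than in total RNA, by -0.47 on the log2 scale (SE 0.11, edgeR adjusted p = 1.30e-04), as were 42.1% of genes. With replicates 1 to 3 alone the difference was -0.25 with an adjusted p of 0.0835. Cirbp had 8.20 CPM ± 4.38 (SD, n = 36), with a lowest library of 0.78, a median of 7.19 and a highest of 18.98. Rbm3 had 15.5 CPM ± 7.36 (SD, n = 36), with a lowest of 4.85, a median of 14.6 and a highest of 39.6. Its difference from total RNA was 0.10 (SE 0.10) with an adjusted p of 0.346. That value was -0.16 with replicates 1 to 3 alone and 0.42 (adjusted p = 0.00372) with replicates 4 to 6 alone. Without replicate 3 it was 0.26 with an adjusted p of 0.0294, so the data give no stable direction for Rbm3 between nucleus and total RNA.

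Libraries also varied around the mean of their own time point, and in Bmal1-/- that variation was shared by both genes. The 12 correlations of Cirbp, Rbm3 and Hsph1 within time points used 36 libraries and log2(CPM + 1) less the time-point mean, with CPM after TMM scaling. They were tested by 2-sided permutation within time points and adjusted together. For Cirbp and Rbm3 in Bmal1-/-, Pearson's r was 0.84 (adjusted p = 9e-04) and Spearman's rho 0.74 (adjusted p = 4.4e-04). Without the 2 ZT18 libraries, which were also those farthest from the median, r was 0.57 and rho 0.52 (permutation adjusted p = 0.019 and 0.0278). In wild-type total RNA r was 0.47 (adjusted p = 0.0274) and rho 0.39 (adjusted p = 0.0848), and without the 2 farthest libraries r was 0.38 (adjusted p = 0.129), so the call was lost. It was 0.28 in replicates 1 to 3 and 0.74 in replicates 4 to 6 (permutation adjusted p = 0.0337). In nuclear RNA r was -0.12 and rho -0.15 (adjusted p = 0.524 and 0.455). In polysomal RNA r was 0.19 and rho 0.17 (adjusted p = 0.4 and 0.455).

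The correlation of Cirbp with Hsph1 within time points was negative in the 4 series. Pearson's r was -0.51 in wild-type total RNA (adjusted permutation p = 9e-04, rho -0.60 with 4.4e-04), -0.51 in polysomal RNA (p = 0.013, rho -0.53 with 0.00598) and -0.51 in Bmal1-/- (p = 0.00176, rho -0.62 with 0.00044). In nuclear RNA it was -0.39 (adjusted p = 0.0525, rho -0.34 with 0.114). Without the 2 farthest libraries r was -0.58, -0.47 and -0.50 in the first 3, and -0.17 in nuclear RNA. Same-numbered libraries can share a shift, so the correlations were also taken with the replicate-number means removed, an alternative added after the values had been seen. Then r was -0.58 in wild-type total RNA (permutation adjusted p = 0.00512) and -0.65 in nuclear RNA (9e-04), but -0.26 in polysomal RNA and -0.30 in Bmal1-/- (0.268 for both), where the call was lost. Rbm3 and Hsph1 gave r = -0.50 in Bmal1-/- (adjusted p = 0.00381, rho -0.57 with 0.00138) and r = -0.40 in polysomal RNA (adjusted p = 0.0483, rho -0.31 with 0.126). Without the 2 farthest libraries these were -0.43 (adjusted p = 0.0442) and -0.21 (adjusted p = 0.422), so the polysomal call was lost. With the replicate-number means removed both missed the threshold, at -0.30 in Bmal1-/- and -0.27 in polysomal RNA (0.268 for both), while Cirbp and Rbm3 in Bmal1-/- kept theirs at 0.81 (9e-04). That last value includes the 2 ZT18 libraries, and it was not taken again without them. In wild-type total RNA r was -0.30 (adjusted p = 0.0947, rho -0.30 with 0.126) and in nuclear RNA -0.13 (adjusted p = 0.523, rho -0.07 with 0.716). Within the sets of 3 replicates most of these correlations missed the threshold.

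**Figure D4:**
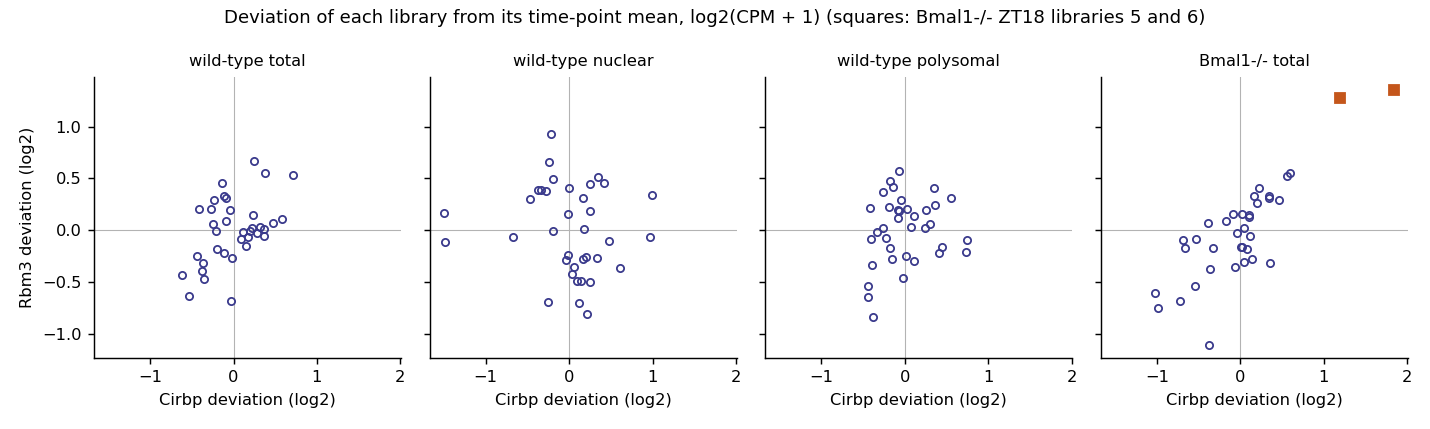
Deviation of Rbm3 against deviation of Cirbp from the mean of their time point, in log2(CPM + 1) after TMM scaling, with 1 point per library and 1 panel per series. In Bmal1-/- the points run along a rising line and the 2 ZT18 libraries (squares) lie at its upper end, while nuclear and polysomal points form no line (r = -0.12 and 0.19).

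The series was designed around polyadenylation sites, and here the 2 genes differ. Cirbp had a single site in both lists, at positions 80171512 to 80171660 of chromosome 10 on the plus strand, inside the annotated gene. This site held 93.6% to 95.7% of the gene's counts in the 4 series, so site choice could not be compared for Cirbp. It was called rhythmic like the gene, with peak-to-trough differences of 1.29 (SE 0.19) in total, 1.41 (SE 0.29) in nuclear and 1.28 (SE 0.22) in polysomal RNA. The adjusted p-values were 3.51e-05, 0.00596 and 4.48e-04 by edgeR, where 11.1%, 3.52% and 3.88% of all sites were called.

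Rbm3 lies on the minus strand of chromosome X and had 4 sites, of which 2 were in the filtered list. The main site at positions 8142356 to 8142427 took 80.0% ± 6.55 (SD, n = 36) of the counts at all 4 sites in total RNA of wild-type liver and 94.1% ± 2.78 (SD, n = 36) in polysomal RNA. The upstream site at 8143282 to 8143298, 898.5 bases from the main site between centres, held 3.66% and 0.71%. The main site was called rhythmic in polysomal RNA (0.93, SE 0.18, peak at ZT14.8, edgeR adjusted p = 0.00266) and not in total (0.36, adjusted p = 0.383) or nuclear RNA (0.72, adjusted p = 0.357). Exon and UTR boundaries of these genes were not used here. Rbm3os, named for the strand opposite Rbm3, averaged 0.16 CPM in wild-type total RNA, and no source says whether counting used the strand.

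The share of the upstream site was lower in polysomal RNA. Of the counts at the 2 filtered sites it held 4.35% ± 3.59 (SD, n = 36, range 0 to 12.1) in total RNA, 3.45% ± 4.28 in nuclear RNA, 0.73% ± 1.44 in polysomal RNA (range 0 to 7.41) and 4.29% ± 2.38 in Bmal1-/-. The ranges overlapped, and the site had 0 counts in 21 of 36 polysomal and 6 of 36 total RNA libraries. Its usage at a given gene total fell by 2.81 on the log2 scale in polysomal RNA (SE 0.43, edgeR adjusted p = 4.90e-08), a test in which 66.3% of 16785 sites were called in either direction. Against wild-type total RNA the usage difference was -0.42 (SE 0.35, adjusted p = 0.278) in nuclear RNA and -0.04 (SE 0.28, adjusted p = 0.975) in Bmal1-/-. The site had 148 counts in all wild-type total and 60 in all polysomal libraries. The design's minimum of 5% of a gene's counts left out the upstream site, and the minimum was lowered to 1% after the counts had been seen.

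The sites outside the filtered list differed as well, and are given without a test. The one between the upstream and the main site, at 8142559 to 8142596, took 9.49% ± 5.08 (SD, n = 36) in total RNA of wild-type liver, 2.49% ± 3.72 in nuclear RNA, 4.84% ± 3.05 in polysomal RNA and 9.04% ± 4.57 in Bmal1-/-. The one past the annotated gene end, at 8137976 to 8138013, held 6.90% ± 3.89 in total RNA, 5.03% ± 4.53 in nuclear RNA, 0.38% ± 1.08 in polysomal RNA and 3.69% ± 2.88 in Bmal1-/-. It had 18 counts in all 36 polysomal libraries together, 0.199% of the pooled counts at the 4 sites. Usage of the Rbm3 sites was not called rhythmic in total RNA (upstream site, edgeR adjusted p = 0.99997, where 53 of 17426 sites were called).

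**Figure D5:**
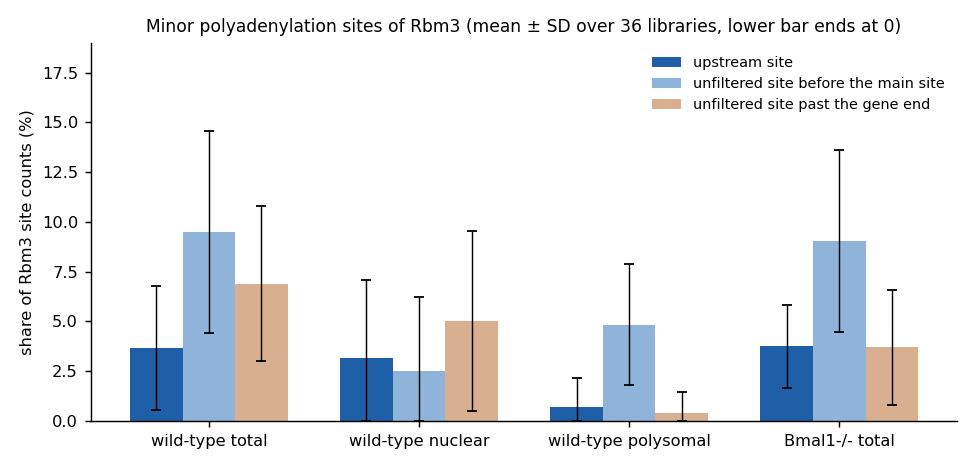
Mean share (± SD over 36 libraries, lower ends stopped at 0) of the counts at all 4 Rbm3 sites that fell at each of the 3 minor sites, in percent, for the 4 series. The upstream site and the site past the gene end have their lowest shares in polysomal RNA (0.71% and 0.38%), and the site before the main site has its lowest share in nuclear RNA (2.49%).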

How the data were processed

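The authors deposited raw counts per gene symbol and per polyadenylation site, with 1 column per library; STAR 2.4.2a, HOMER, edgeR, mm10 and GRCm38.p5 are named in the submitters' processing notes. The raw counts were used, and 0 columns were left without a sample. Levels (CPM) are counts divided by the library's gene counts and scaled to 1000000. For the correlations within time points and over group means, CPM was instead scaled by TMM within each series. Features averaging 10 or more counts were tested in R 4.3.3 with edgeR 4.0.16 (TMM, robust quasi-likelihood F tests, Benjamini-Hochberg over all features, threshold 0.05). Rhythm was a 24 h cosine and sine pair within a series, a rhythm difference its interaction with series, and a level difference the contrast of the means of the 6 time points. The peak-to-trough difference is the fitted one on the log2 scale. Sites were given to a gene of the RefSeq table (GRCm38.p6) that held them on the same strand or ended up to 1000 bp before them. Usage was tested on site counts with the log of the gene's site total plus 0.5 as offset. Alternatives were DESeq2 1.42.0, other size factors, no count filter, a replicate block, replicate sets, libraries left out and joint fits.

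The genes named were the members, the called list genes with the largest change (up to 4 a list) and the 5 genes most like each member. Clk1, Angptl4, Mt1, Ppargc1a, Dbp, Arntl and Rbm3os were added after their values were seen. The members, the lists and the tests were chosen with earlier results of these data known.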

Additional observations from a re-analysis of the deposited data

Results flagged for a closer look

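In the 48 groups of 6 libraries of Cirbp and Rbm3, 4 held a library far from the other 5 by Dixon's test at the 95% level, which chance gives in about 1 of 20 groups. Cirbp in polysomal RNA at ZT2 was 36.2 CPM in the library with replicate number 4, against 17.1 to 23.6 in the others. Rbm3 in polysomal RNA at ZT2 was 58.1 CPM in the library with replicate number 5, against 28.8 to 33.1. Rbm3 in nuclear RNA at ZT22 was 39.6 CPM in 1 library, against 8.42 to 18.4. Cirbp in Bmal1-/- at ZT10 was lowest at 8.04 CPM, against 12.6 to 15.0. The Bmal1-/- libraries 5 and 6 at ZT18 were not among these.

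The Cirbp rhythm of Bmal1-/- liver differed from that of wild type in total RNA, with an adjusted p of 0.00358 by edgeR's interaction test, and of 0.0672 without those 2 libraries.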

How the results depend on the processing

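Of 274 alternative values for the rhythms, rhythm differences and levels of Cirbp and Rbm3, 263 kept the side of the threshold and, for levels, the direction. Rhythms and rhythm differences are lengths without a sign, so direction was not scored for them and moves of the fitted peak were not counted. Size factors, DESeq2, the joint fit and time as a factor moved none of them across the threshold and changed the direction of no level. With replicates 1 to 3 alone the calls were lost for the Cirbp rhythm in nuclear RNA (1.15, log2), the Rbm3 rhythm in polysomal RNA (1.12), the Cirbp rhythm difference in Bmal1-/- (0.86) and the Cirbp levels in Bmal1-/- (0.19) and nuclear RNA (-0.25). The Cirbp rhythm difference also lost its call without Bmal1-/- ZT18 libraries 5 and 6 (0.88). The nuclear Rbm3 level was -0.0022 without a count filter, -0.16 with replicates 1 to 3 alone and 0.42 with replicates 4 to 6 alone, where it was called. Leaving out 1 replicate number at a time gave 0.0163 to 0.26 for it, with a call without replicate 3, and changed no other call.

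No label ties same-numbered samples of different series. Their deviations from the group means correlated with those of wild-type total RNA at over 0.1 in 35 of 36 nuclear pairs (lowest -0.0233). The same held for 0 of 36 polysomal and 15 of 36 Bmal1-/- pairs. Among the 6 libraries of a time point, 29, 0 and 14 samples correlated best with their own number, where chance gives about 1 in 6. These counts hint at a tie for nuclear RNA and, less strongly, at a shared shift in Bmal1-/-, whose source was not tested. Polysomal pairs went the other way, with a mean correlation of -0.12 (range -0.478 to 0.0753), and the source of that was not tested either. In level and rhythm differences of nuclear and polysomal against total RNA, the replicate block paired same-numbered libraries of a time point. Elsewhere it was the replicate number alone. The replicate block changed no nuclear call and 1 of 20 calls in all, the Rbm3 rhythm in wild-type total RNA (0.48), and moved the rhythmic genes in polysomal RNA from 845 to 1506. Usage of the upstream Rbm3 site in Bmal1-/- was 0.0585 with the block and 0.20 with replicates 4 to 6 alone, both without a call. At a site minimum of 5% neither gene could be tested, so the other settings at that minimum gave no value.

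Of 51 alternative correlations 23 kept direction and call. With replicates 1 to 3 alone, r missed the threshold for Cirbp and Rbm3 in wild-type total RNA (0.28) and Bmal1-/- (0.29), for Cirbp and Hsph1 in total (-0.52), polysomal (-0.29) and Bmal1-/- RNA (-0.31) and for Rbm3 and Hsph1 in polysomal (-0.48) and Bmal1-/- RNA (-0.11), and it was 0.18 for Cirbp and Rbm3 in nuclear RNA. With replicates 4 to 6 alone it missed for Cirbp and Hsph1 in total (-0.46), polysomal (-0.49) and Bmal1-/- RNA (-0.35), for Rbm3 and Hsph1 in Bmal1-/- (-0.47) and for Cirbp and Rbm3 there (0.88). It passed for Rbm3 and Hsph1 in total RNA (-0.56) and changed sign for Cirbp and Rbm3 in nuclear (0.0079) and polysomal RNA (-0.42) and for Rbm3 and Hsph1 in nuclear (0.14) and polysomal RNA (0.0738). Without the 2 farthest libraries it missed for Cirbp and Rbm3 in total RNA (0.38) and Rbm3 and Hsph1 in polysomal RNA (-0.21). With the replicate block it missed for Cirbp and Hsph1 in polysomal (-0.26) and Bmal1-/- RNA (-0.30) and for Rbm3 and Hsph1 in polysomal (-0.27) and Bmal1-/- RNA (-0.30), passed for Rbm3 and Hsph1 in total (-0.46) and Cirbp and Hsph1 in nuclear RNA (-0.65), and changed sign for Rbm3 and Hsph1 in nuclear (0.0499) and Cirbp and Rbm3 in polysomal RNA (-0.19).

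Counts of called genes moved by over 1.5 times under some settings. Rhythmic genes were 2260 in wild-type total RNA and 622 to 1411 with 3 replicates, a joint fit or time as a factor. They were 669 in nuclear RNA and 174 to 430 with fewer replicates or time as a factor, 845 in polysomal RNA and 115 to 2679 over the settings, and 1 in Bmal1-/- and 0 to 21. Rhythm differences were 617 in Bmal1-/- and 189 to 387 with fewer replicates or a joint fit, 0 in nuclear RNA and up to 5, and 0 in polysomal RNA and up to 424 without a count filter. The cause of these changes was not tested.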
